A study of Mus musculus with 12 samples.

Results

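The effect of deleting Phf2, averaged over gastrocnemius and soleus, was measured. All 6 knockout libraries were set against all 6 control libraries, with the muscle as a term of the model. The 12 libraries formed 4 groups of 3, from 4-week-old male mice on a C57BL/6 background. Knockout (KO) mice were Phf2 flox/flox;Acta1 Cre+ and control (Ctrl) mice Phf2 flox/flox;Acta1 Cre-, so the floxed alleles were common to all groups. Acta1 encodes skeletal muscle actin, and its promoter drives Cre in skeletal muscle fibres. The controls carried no Cre, so effects of Cre itself and of losing Phf2 cannot be told apart. The labels name neither the floxed exons nor the mouse behind each library, and p-values therefore measure the spread between libraries, which may be technical. Expression was deposited as TPM (a level per transcript length, scaled so that all libraries sum alike). Genes entered the comparison when their mean over the 12 libraries reached 1 TPM, which held for 12091 of 34866 gene IDs. Differences below are log2 fold changes, KO minus Ctrl, on the log2(TPM + 1) scale and averaged over both muscles, and calling used a threshold of 0.05 on limma's adjusted p. A range joined by a dash gives the lowest and highest of the 3 libraries of a group.

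PHF2 is a nuclear protein with a PHD finger, which reads methylated histone tails, and a Jumonji domain of the kind that removes methyl groups from lysines. It is known as a coactivator that lowers repressive histone methylation at the genes it is recruited to, and for roles in fat cell and bone cell differentiation. Gastrocnemius is a mostly fast-twitch calf muscle and soleus a slow-twitch postural muscle.

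The libraries differed in ways that touch the comparison. Genes above 0 TPM numbered 18291 to 18699 in gastrocnemius Ctrl and 19676 to 20175 in gastrocnemius KO, while soleus Ctrl (18453 to 19802) and soleus KO (19463 to 19989) overlapped. Processed pseudogenes above 0 TPM numbered 1134 to 1293 and 1683 to 1924 in gastrocnemius Ctrl and KO, against 1194 to 1876 and 1468 to 1936 in soleus. Soleus KO 3 stood apart, with 39.0% of its TPM in mitochondrially encoded transcripts against 24.5% to 29.6% in the other soleus libraries. In gastrocnemius this share was 22.0% to 24.1% in Ctrl and 18.1% to 20.7% in KO. The slope of log2(TPM + 1) on the GC fraction of transcripts, fitted with log2 length to deviations from the mean of the muscle, was -1.14 to -0.48 in gastrocnemius Ctrl and 0.50 to 1.01 in KO, and -2.57 in soleus KO 3 against 0.21 to 0.93 in the other soleus libraries. With GC and length corrected 242 genes rose and 262 fell, and with TPM rescaled without mitochondrially encoded genes 163 rose and 123 fell (127 and 125 as deposited). The first principal component, which separated the muscles, held 57.4% of the variance. The fast myosin Myh4 was at 9589.9 to 10774 TPM in gastrocnemius Ctrl and 32.0 to 78.5 in soleus Ctrl, and the slow myosin Myh7 at 40.8 to 70.4 and 4503 to 5573, as the muscle labels have it.

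Phf2 itself lies on chromosome 13 from 48801750 to 48871119 (minus strand, mm10). It was at 9.996, 11.4 and 8.24 TPM in gastrocnemius Ctrl 1 to 3 and at 6.74, 7.61 and 7.003 in the KO libraries. The soleus levels were 14.03, 10.002 and 14.98 TPM for Ctrl and 8.11, 9.06 and 6.79 for KO. Every KO library lay below every Ctrl library of its muscle, yet 72.1% of the Ctrl mean was left in gastrocnemius and 61.4% in soleus. Phf2 fell across both muscles (log2 fold change -0.52, SE 0.112, adjusted p = 0.0332). An exact two-sided permutation test with genotype exchanged within each muscle gave p = 0.005, the smallest its 400 arrangements allow. Those arrangements exchange each muscle independently, so this p assumes that no mouse gave both muscles. The labels do not say whether that holds. Leaving out a library ended the call in 8 of 12 cases, with log2 fold changes from -0.58 to -0.46. The fall did not differ detectably between muscles (adjusted p = 0.591). Whole muscle also holds cells without Acta1-Cre, and in such bulk samples fewer cells of a type and less RNA per cell cannot be told apart. Of 21 other tested genes whose starts lie within 2000000 bases of that of Phf2, 0 were called by limma and 3 had an unadjusted p under 0.05, as 15% of all tested genes did.

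Across both muscles 127 genes were higher in KO and 125 lower, together 252 or 2.08% of the genes tested (1.05% higher and 1.03% lower). The changes were of moderate size. The median log2 fold change was 0.63 among the called rises and -0.56 among the called falls, and 22 rises and 14 falls went beyond 2-fold. Genes that code for proteins made up 121 of the rises and 121 of the falls, much as over all genes tested (11707 of 12091). The KO and Ctrl libraries were apart in the same direction in both muscles for 107 of the 127 rises and 105 of the 125 falls, where 3.48% of all genes tested were so (1.7% higher and 1.79% lower). The other 20 rises were apart in gastrocnemius only (16 genes) or soleus only (4), and the other 20 falls in one or the other muscle for 10 genes each. The additive fit itself selects genes that agree between muscles, so this agreement describes the called genes and is no test of them. Counts moved with single libraries, from 66 rises and 70 falls without gastrocnemius KO 2 to 353 and 196 without soleus KO 3, and 120 of the 252 genes stayed called whichever library was omitted.

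**Figure D1:**
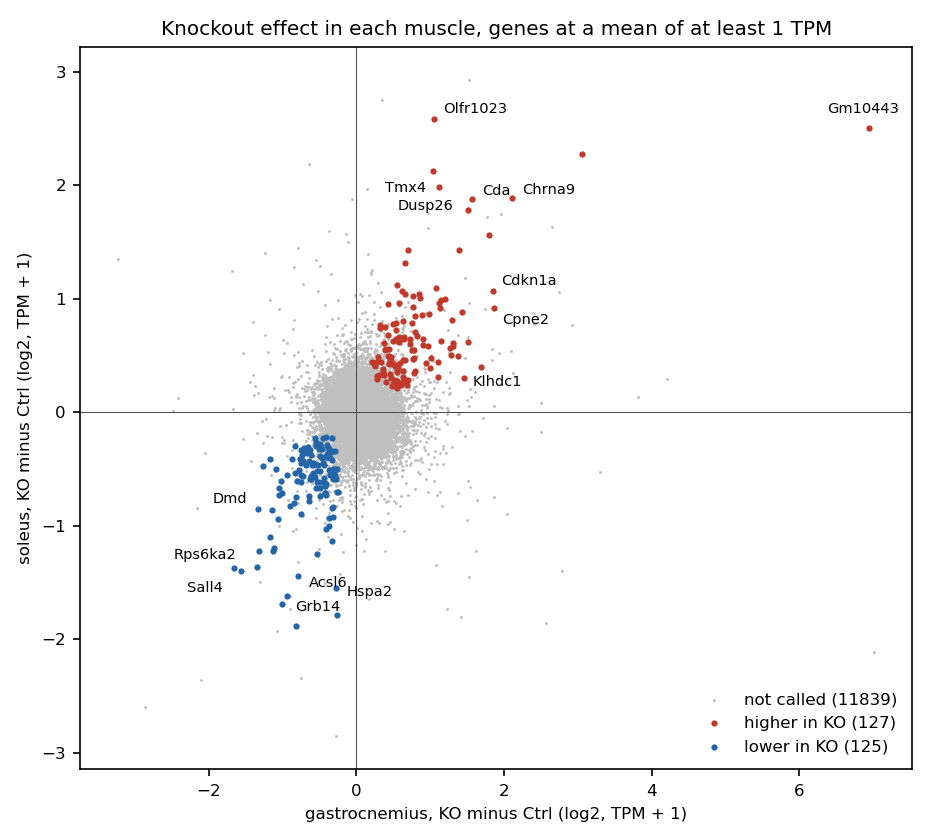
Knockout effect in gastrocnemius (horizontal axis) and soleus (vertical axis) for each of the 12091 genes tested, both as KO minus Ctrl on the log2(TPM + 1) scale. Red points are the 127 called rises and blue points the 125 called falls, which lie at the upper right and the lower left. Grey points are genes not called, and over all genes tested Pearson r was 0.104.

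Fewer genes were called across muscles than in gastrocnemius alone. Among the same 12091 genes, gastrocnemius fitted alone gave 1110 rises (9.18%) and 592 falls (4.9%), and soleus fitted alone 1 rise (0.00827%) and 5 falls (0.0414%). Of the gastrocnemius rises 38.3% were above 0 in soleus, where 47.2% of all tested genes were. Of the gastrocnemius falls 47.3% were below 0 in soleus, against 52.8% of all. The 196 genes called both across muscles and in gastrocnemius alone were 77.8% of the 252 and 11.5% of the gastrocnemius calls. The 252 calls across muscles held 23 rises and 33 falls that gastrocnemius alone did not give. Over all 12091 genes the log2 fold changes of the muscles correlated at Pearson r = 0.104 and Spearman rho = -0.034, given as a description, since genes of a library share its composition.

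The 4 rises described first are of a receptor subunit, 2 genes related to ion channels and 1 related to an ion pump. Chrna9 (chromosome 5, 65934921 to 65977326), a subunit of the nicotinic acetylcholine receptor best known from sensory hair cells, was at 0.355, 0.648 and 0.487 TPM in gastrocnemius Ctrl and 6.28, 5.64 and 4.49 in KO. In soleus it was at 0.676, 3.41 and 3.56 TPM in Ctrl and 11.7, 8.31 and 13.4 in KO. The lowest KO library of either muscle thus exceeded the highest Ctrl library of any, and Chrna9 had the largest rise of the named genes (log2 fold change 1.998, SE 0.221, adjusted p = 0.000665). Atp1b4, which is related to beta subunits of the sodium pump and sits in the inner nuclear membrane of muscle, was at 3.65, 3.58 and 5.37 TPM in gastrocnemius Ctrl and 11.1, 22.4 and 18.99 in KO. Its soleus values were 10.9, 12.3 and 11.7 TPM in Ctrl and 45.4, 23.2 and 45.2 in KO. It rose by 1.68 (SE 0.190, adjusted p = 0.000756), and its soleus Ctrl libraries lay above those of gastrocnemius. Ryr3, a ryanodine receptor calcium channel of the sarcoplasmic reticulum that is abundant in neonatal muscle, rose from 0.222–0.294 to 1.32–2.76 TPM in gastrocnemius and from 0.360–0.740 to 1.30–3.21 TPM in soleus (1.10, SE 0.153, adjusted p = 0.00269). Its gene overlaps Aven on the opposite strand. Catsperg1, an auxiliary subunit of the calcium channel of sperm, stayed at low levels and rose from 0.263–0.526 to 1.45–2.41 TPM and from 0.242–0.741 to 1.65–3.35 TPM.

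The next 6 named rises differ in function. Dusp26 (chromosome 8, 31089471 to 31097047), a phosphatase that acts on MAP kinases, was at 17.9, 12.5 and 7.98 TPM in gastrocnemius Ctrl and 38.1, 32.9 and 39.7 in KO, and in soleus at 12.2, 8.83 and 8.86 TPM in Ctrl and 51.2, 33.4 and 28.1 in KO. It rose (log2 fold change 1.65, SE 0.183, adjusted p = 0.000665), and the KO libraries of the muscles overlapped. Cdkn1a (chromosome 17, 29090976 to 29100727), the cyclin-dependent kinase inhibitor p21, was at 11.4, 10.4 and 8.96 TPM in gastrocnemius Ctrl and 37.3, 53.2 and 31.1 in KO. In soleus its Ctrl libraries were at 27.3, 16.6 and 23.2 TPM and its KO libraries at 58.5, 39.2 and 45.5. The groups were apart in each muscle (log2 fold change 1.46, SE 0.187, adjusted p = 0.00144). The rise was 1.85 in gastrocnemius and 1.07 in soleus, a difference that did not pass its test (adjusted p = 0.195). Uchl1, a deubiquitinating enzyme abundant in neurons, was higher in soleus in either genotype and rose from 3.90–5.50 to 9.32–15.4 TPM in gastrocnemius and from 16.8–22.5 to 32.6–51.7 TPM in soleus (1.07, SE 0.143, adjusted p = 0.00194). Tnfrsf23, a decoy receptor for the death ligand TRAIL, rose by 1.07 (SE 0.157, adjusted p = 0.00393). Tmx4, a thioredoxin-related membrane protein of the endoplasmic reticulum, rose by 1.55 (SE 0.185, adjusted p = 0.000824). Cpne2, a copine, which binds membranes when calcium rises, rose by 1.39 (SE 0.216, adjusted p = 0.00500).

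Other named rises were of an enzyme, a histone and an olfactory receptor. Cda, the cytidine deaminase of pyrimidine salvage, rose from 0.647–1.05 to 3.57–6.54 TPM in gastrocnemius and from 1.68–2.69 to 7.07–14.4 TPM in soleus (1.72, SE 0.176, adjusted p = 0.000362). Hist1h4n, a replication-dependent histone H4 gene with near-identical copies whose share of reads is uncertain, rose by 1.41 (SE 0.191, adjusted p = 0.00214). Olfr1023, of the olfactory receptor family, rose by 1.82 (SE 0.309, adjusted p = 0.00898), with KO libraries at 10.5, 14.2 and 8.55 TPM in gastrocnemius and 54.5, 19.8 and 33.0 in soleus. Its difference between muscles, 1.06 against 2.58, did not pass its test (adjusted p = 0.134). All 14 named rises stayed called whichever library was omitted.

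**Figure D2:**
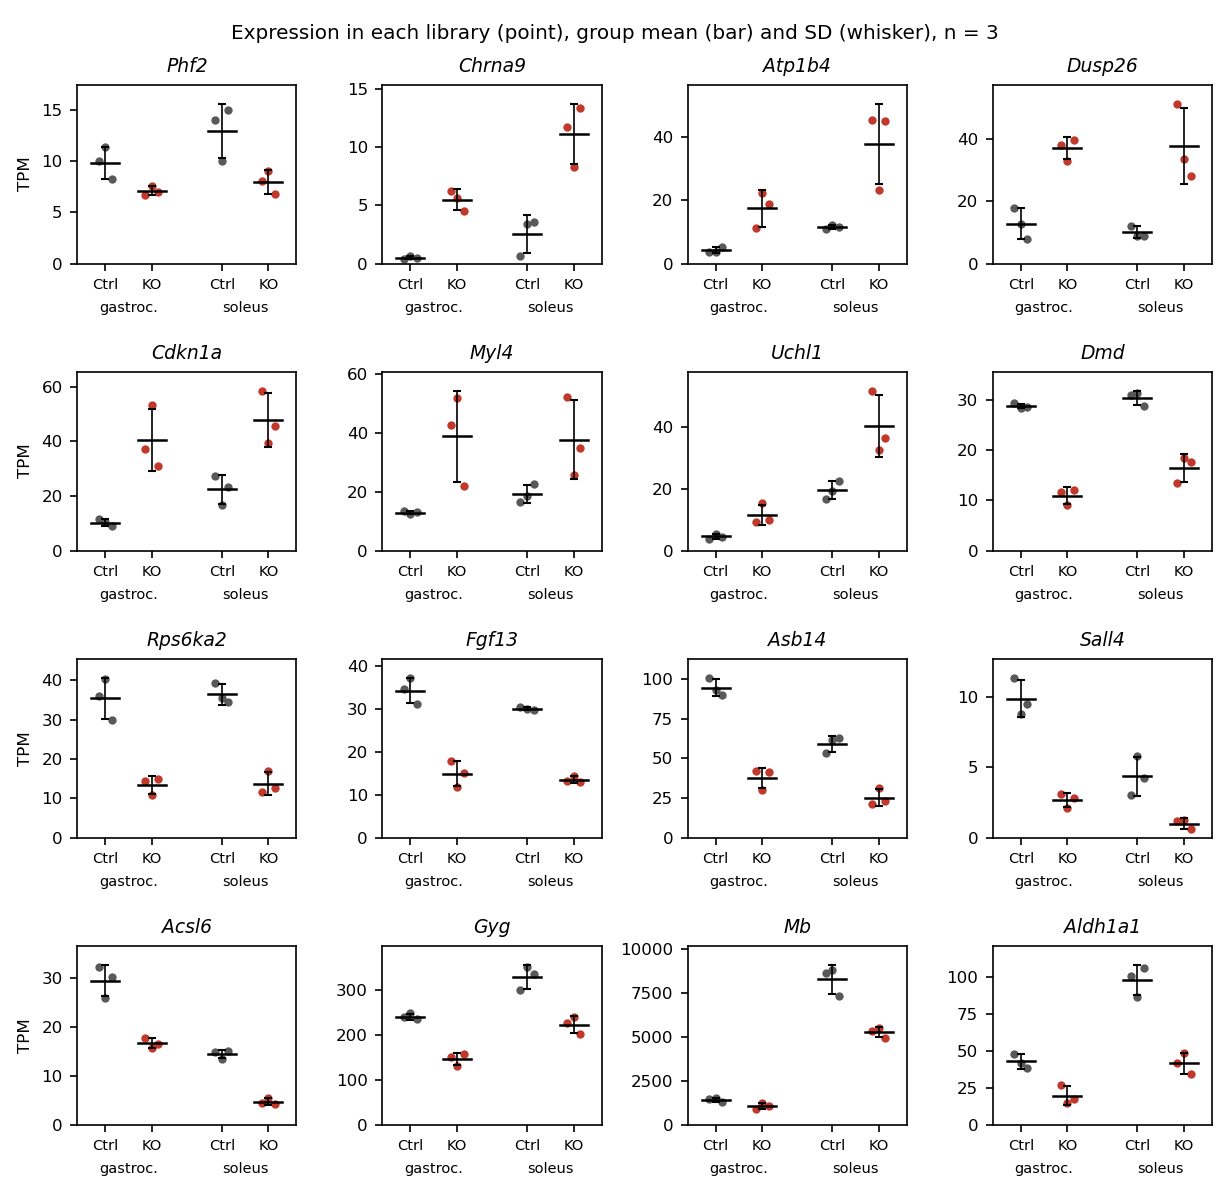
TPM of 16 genes in each library (points), with group means (bars) and SD (whiskers, n = 3), for Ctrl (grey) and KO (red) in gastrocnemius and soleus. The 6 genes from Chrna9 to Uchl1 are higher in KO, and Phf2 and the 9 genes from Dmd to Aldh1a1 are lower, with KO and Ctrl libraries apart in each muscle.

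Dmd (chromosome X, 82948870 to 85206141), which encodes dystrophin, the link between the cytoskeleton and the sarcolemma whose loss causes Duchenne muscular dystrophy, led the structural genes that fell. It was at 29.3, 28.4 and 28.6 TPM in gastrocnemius Ctrl and 11.7, 9.05 and 12.02 in KO, and at 30.9, 31.4 and 28.7 TPM in soleus Ctrl and 13.3, 18.4 and 17.6 in KO. Its Ctrl libraries lay close together in both muscles and every KO library was well below them (log2 fold change -1.09, SE 0.111, adjusted p = 0.000362). The fall was -1.33 in gastrocnemius and -0.86 in soleus, a difference that did not pass its test (adjusted p = 0.190), and the call held in each of 29 alternatives. Capn3, the muscle calpain bound to titin, fell from 76.4–80.8 to 59.5–61.3 TPM in gastrocnemius and from 81.0–88.1 to 51.9–65.5 TPM in soleus (-0.44, SE 0.0683, adjusted p = 0.00525). It overlaps Ganc on the same strand. Mb, the oxygen carrier myoglobin, fell from 1275–1505 to 877–1231 TPM and from 7328–8814 to 4938–5491 TPM (-0.54, SE 0.0997, adjusted p = 0.0150).

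Signalling genes were among the falls of smallest p. Rps6ka2 (chromosome 17, 7170115 to 7303315), a ribosomal S6 kinase activated by ERK, was at 36.0, 40.3 and 29.97 TPM in gastrocnemius Ctrl and 14.5, 10.8 and 14.9 in KO. In soleus it was at 39.3, 35.5 and 34.4 TPM in Ctrl and 11.5, 17.1 and 12.6 in KO. It fell by 1.35 (SE 0.112, adjusted p = 0.000150) over both, with log2 fold changes of -1.34 in gastrocnemius and -1.36 in soleus. Fgf13, an intracellular fibroblast growth factor homologue that binds voltage-gated sodium channels, was at 34.6, 37.1 and 31.2 TPM in gastrocnemius Ctrl and 17.8, 11.8 and 15.2 in KO, and in soleus at 30.4, 30.1 and 29.8 TPM in Ctrl and 13.1, 14.4 and 12.97 in KO. It fell (-1.13, SE 0.0879, adjusted p = 0.000150), with -1.16 in gastrocnemius and -1.10 in soleus. Grb14, an adaptor that inhibits the insulin receptor, was higher in soleus and fell from 23.97–46.6 to 7.77–13.1 TPM there and from 7.95–12.4 to 3.82–5.71 TPM in gastrocnemius (-1.28, SE 0.199, adjusted p = 0.00501). Egf, the epidermal growth factor, fell from 16.6–21.7 to 6.81–9.29 TPM and from 9.05–9.52 to 2.47–4.52 TPM (-1.16, SE 0.114, adjusted p = 0.000362). Pde7a, a cyclic AMP phosphodiesterase, fell by 0.88 (SE 0.0775, adjusted p = 0.000170).

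Among the falls of regulators and enzymes, Sall4 (chromosome 2, 168748332 to 168767943), a zinc-finger transcription factor of stem and germ cells, had the largest change. It was at 11.4, 8.75 and 9.51 TPM in gastrocnemius Ctrl and 3.12, 2.12 and 2.82 in KO, and at 3.06, 5.78 and 4.22 TPM in soleus Ctrl and 1.19, 1.24 and 0.593 in KO (log2 fold change -1.48, SE 0.136, adjusted p = 0.000236). The soleus levels were lower in either genotype and the groups apart in each muscle. Asb14, an ankyrin-repeat substrate adaptor of ubiquitin ligases, fell from 90.0–101 to 30.2–41.7 TPM in gastrocnemius and from 53.2–62.6 to 21.3–31.1 TPM in soleus (-1.27, SE 0.107, adjusted p = 0.000150). Aldh1a1, a dehydrogenase that makes retinoic acid from retinal, was higher in soleus and fell from 38.4–48.1 to 14.8–27.2 TPM in gastrocnemius and from 86.4–106 to 34.1–48.7 TPM in soleus (-1.17, SE 0.137, adjusted p = 0.000798). Acsl6, which activates long-chain fatty acids, fell from 25.95–32.2 to 15.7–17.8 TPM and from 13.5–15.1 to 4.18–5.49 TPM (-1.11, SE 0.121, adjusted p = 0.000649). Aspa, which splits N-acetylaspartate, fell by 1.001 (SE 0.111, adjusted p = 0.000665). Amy1, an amylase with near-identical copies, fell by 0.997 (SE 0.146, adjusted p = 0.00393). Tspan8, a tetraspanin found almost wholly in gastrocnemius (55.3 to 59.7 TPM in Ctrl and 16.9 to 30.6 in KO, against 0.666 to 1.31 and 0.379 to 0.531 in soleus), fell by 0.87 (SE 0.167, adjusted p = 0.0188). Gbp6, an interferon-inducible GTPase, fell by 1.35 (SE 0.310, adjusted p = 0.0433), with scattered Ctrl values (13.5, 11.3 and 4.59 TPM in soleus). Omitting a library ended the call of Tspan8 in 3 of 12 cases and that of Gbp6 in 8 of 12, and the other 12 named falls kept theirs in all 12. Other annotated genes overlap Myl4, Catsperg1, Gbp6, Aldh1a1, Fgf13, Dmd, Amy1, Mb and Pfkfb1, and the sources used here do not say how reads of shared bases were assigned. The overlap is on the same strand for Gbp6 (Gm43302), Amy1 (Rnpc3) and Dmd (Gm14769 and Gm14770), which counting by strand would not separate.

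**Figure D3:**
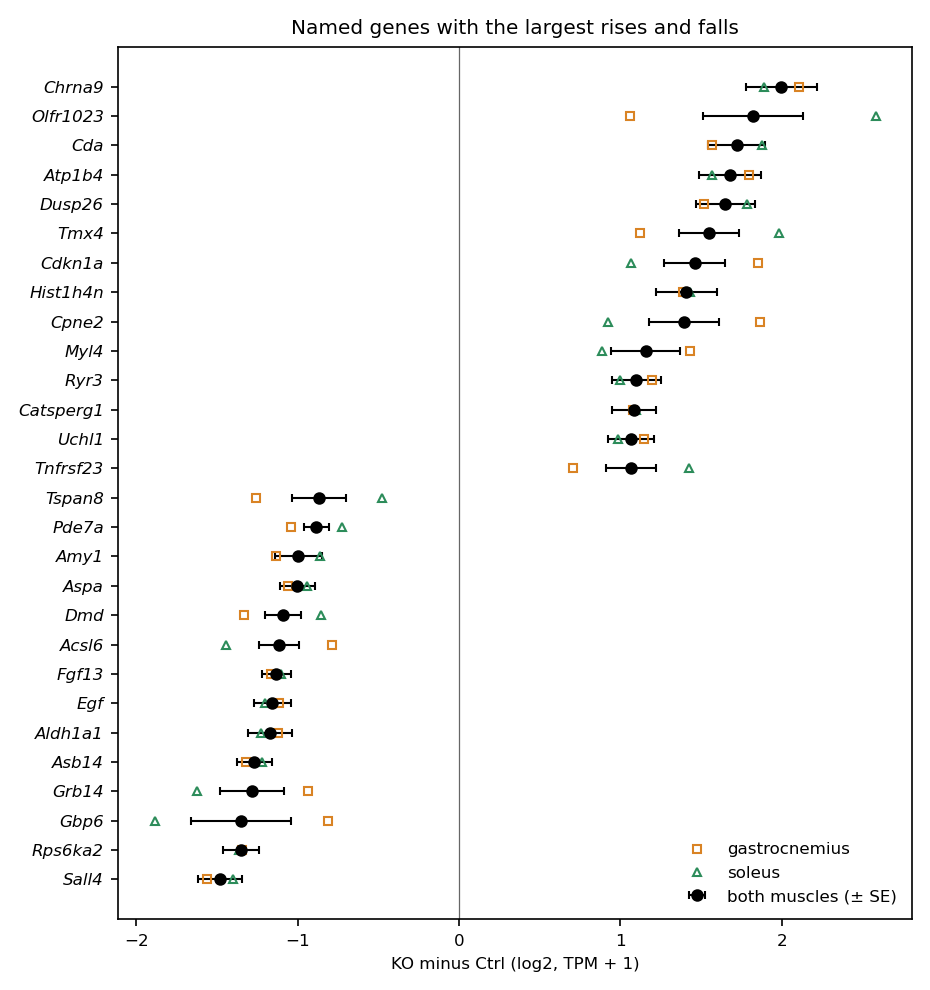
Log2 fold change, KO minus Ctrl, of the 14 named rises and 14 named falls across both muscles (black points, ± SE) and in gastrocnemius (squares) and soleus (triangles) alone. All 28 genes lie on the same side of 0 in both muscles, because they were chosen with libraries apart in the same direction in both. The muscles' values are farthest apart for Olfr1023 (1.06 and 2.58).

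Promoters of genes that moved together were set beside each other, using RefSeq windows of GRCm38.p6 that hold the 250 bases before a transcript start. Of the called genes, 85 of 127 risers (111 windows) and 89 of 125 fallers (137 windows) had such windows, as did 9202 of 12086 tested symbols (11850 windows). The windows of fallers held fewer CpG dinucleotides, with a median of 7 against 13 in risers and 15 over all tested genes. Both strands were searched for TATAAA, for CCAAT, for the E-box CANNTG that myogenic factors bind, and for CTA and TAG separated by 4 bases, a loose form of the site of MEF2 factors. The last was held by 10 of 137 faller windows (7.30%), against 2.70% of riser windows, 2.86% of windows of tested genes and 3.20% of all 32851 windows in the table. CANNTG was held by 66.4% of faller windows, 61.3% of riser windows, 57.7% of those of tested genes and 66.2% of all. TATAAA was held by 11.7%, 12.6%, 6.65% and 12.4%, and CCAAT by 40.2%, 39.6%, 34.9% and 33.9%. Matches describe these windows and are no evidence of binding, and windows of a gene can overlap.

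Shown are the windows of Fgf13 and Capn3, the named fallers that held the CTA and TAG match, of Rps6ka2, a faller without it, and of Chrna9, the largest named rise. Capitals mark matches to any of the 4 motifs on either strand, each sequence is written 5′ to 3′ on the strand of its gene, and its last base precedes a RefSeq transcript start.
Fgf13 (chrX:59585573-59585822, minus strand): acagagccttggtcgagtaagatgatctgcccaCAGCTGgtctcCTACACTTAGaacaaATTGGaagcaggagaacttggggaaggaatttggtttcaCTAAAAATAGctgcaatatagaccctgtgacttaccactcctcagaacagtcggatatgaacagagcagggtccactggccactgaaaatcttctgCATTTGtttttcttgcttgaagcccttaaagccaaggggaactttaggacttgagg
Capn3 (chr2:120463343-120463592, plus strand): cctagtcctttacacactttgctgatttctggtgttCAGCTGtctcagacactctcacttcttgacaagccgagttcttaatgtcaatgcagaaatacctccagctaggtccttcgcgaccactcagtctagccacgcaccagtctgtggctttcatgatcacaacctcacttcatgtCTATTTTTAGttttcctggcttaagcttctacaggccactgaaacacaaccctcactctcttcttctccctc
Rps6ka2 (chr17:7169865-7170114, plus strand): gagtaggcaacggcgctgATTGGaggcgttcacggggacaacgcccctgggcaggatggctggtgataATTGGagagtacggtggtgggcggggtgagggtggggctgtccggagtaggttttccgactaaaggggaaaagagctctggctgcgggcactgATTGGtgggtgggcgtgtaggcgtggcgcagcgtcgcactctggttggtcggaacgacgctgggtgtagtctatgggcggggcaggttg
Chrna9 (chr5:65966874-65967123, plus strand): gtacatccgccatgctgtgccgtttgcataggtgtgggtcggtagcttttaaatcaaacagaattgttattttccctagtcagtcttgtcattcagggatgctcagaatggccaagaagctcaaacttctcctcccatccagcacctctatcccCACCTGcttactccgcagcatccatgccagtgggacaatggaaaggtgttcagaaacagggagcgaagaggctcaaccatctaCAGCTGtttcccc
Fgf13 held the match at both 206 and 152 bases before its RefSeq start and Capn3 at 72 bases. By the gene coordinates used here, the windows of Capn3 and Chrna9 lie inside their genes. That of Fgf13 lies upstream of its gene and apart from it, and that of Rps6ka2 ends where its gene begins. Whether muscle uses these starts was not tested. The Rps6ka2 window was rich in CpG (19 dinucleotides) and held CCAAT on the opposite strand at 3 places, while Chrna9 held CANNTG at 96 and 13 bases before the start and 5 CpG. The other fallers with a match were Smco1, Gm826, Thpo, Asb18, Kbtbd13, Magix and St3gal6, whose log2 fold changes ran from -0.82 (Gm826) to -0.42 (Kbtbd13).

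Genes of pathways and cell types were then counted in 39 lists, with 723 distinct genes tested, of which 16 rose and 10 fell. Called genes were spread over 13 lists, and 26 lists had no called member. Of 19 tested p53 target genes, 5 rose and 0 fell, with a median log2 fold change of 0.22, where 1.05% of all genes rose and the median of all was 0.012. Besides Cdkn1a these were Gadd45a, a stress sensor of growth arrest (0.77, SE 0.118, adjusted p = 0.00464), Eda2r, a receptor of ectodysplasin (0.77, SE 0.144, adjusted p = 0.0159), Zmat3, an RNA-binding protein (0.35, SE 0.0726, adjusted p = 0.0275), and Aen, a nuclease (0.47, SE 0.108, adjusted p = 0.0422). Gadd45a was at 37.0, 40.5 and 50.2 TPM in gastrocnemius Ctrl and 91.2, 70.0 and 79.7 in KO, and in soleus at 8.17, 7.403 and 10.3 TPM in Ctrl and 17.1, 12.6 and 12.5 in KO. Its gastrocnemius Ctrl libraries lay above those of soleus. Mdm2, which restrains p53, was at 0.22 (adjusted p = 0.252). Bax, which permeabilises mitochondria, was at 0.72 in gastrocnemius and -0.079 in soleus and was not called (adjusted p = 0.408). Aen overlapped between genotypes in soleus. Cdkn1a, Gadd45a and Eda2r kept their calls whichever library was omitted, and Zmat3 and Aen kept theirs in 5 and 2 of 12 cases. The count ran from 3 (without gastrocnemius KO 2, among others) to 6 (without soleus KO 3).

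Of 19 tested genes of embryonic and neonatal muscle, 5 rose and 0 fell, where 1.05% of all genes rose. In this list 18 were above 0 and the median was 0.50, against a median of 0.012 over all genes. Myl4, the embryonic and atrial myosin light chain, was at 13.3, 12.5 and 12.9 TPM in gastrocnemius Ctrl and 42.7, 52.0 and 21.8 in KO, and in soleus at 16.6, 18.5 and 22.6 TPM in Ctrl and 52.1, 25.8 and 34.8 in KO (1.16, SE 0.214, adjusted p = 0.0148). Tnnt2, the cardiac and embryonic troponin T, rose by 0.89 (SE 0.174, adjusted p = 0.0212), and Ncam1, an adhesion molecule of young and denervated fibres, by 0.63 (SE 0.122, adjusted p = 0.0193). Ankrd1, a stretch-responsive titin-binding protein, rose by 0.95 (SE 0.195, adjusted p = 0.0275), with genotypes overlapping in soleus. Peg3, an imprinted zinc-finger gene, rose by 0.57 (SE 0.125, adjusted p = 0.0371). Of these, Myl4 alone stayed called whichever library was omitted, and with a covariate for the number of processed pseudogenes 0 of the 5 were called. Omitting a library gave counts from 1 to 8, with 8 without soleus KO 3.

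Subunits of the acetylcholine receptor, which receives the signal of the motor nerve, were among the rises. Of 19 tested receptor and synapse genes 3 rose and 0 fell (median 0.13), where 1.05% of all genes rose. Beside Chrna9, Chrna1, the alpha subunit of the muscle receptor, was at 7.66, 7.82 and 10.1 TPM in gastrocnemius Ctrl and 12.2, 17.3 and 12.5 in KO, and in soleus at 9.39, 11.5 and 10.5 TPM in Ctrl and 19.4, 15.7 and 16.6 in KO (0.66, SE 0.102, adjusted p = 0.00500). Chrnd, the delta subunit, rose by 0.48 (SE 0.104, adjusted p = 0.0368), and omitting a library ended this call in 9 of 12 cases. The fetal gamma subunit Chrng was at 0.73 (adjusted p = 0.1001), the adult epsilon subunit Chrne at 0.22 (adjusted p = 0.367) and the beta subunit Chrnb1 at 0.26 (adjusted p = 0.194). Of 19 denervation and atrophy genes, Cdkn1a and Gadd45a rose and 0 fell, against the same 1.05%, with a median of 0.029. Of 20 dystrophin complex genes (median 0.058) Dmd fell and Sntb1 rose, where 1.03% of all genes fell and 1.05% rose. Sntb1, a syntrophin that binds dystrophin, went from 3.89–5.58 to 7.78–9.54 TPM and from 2.04–2.52 to 3.61–5.11 TPM (0.75, SE 0.0997, adjusted p = 0.00192).

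Called members of the metabolic lists fell, apart from Hk1. Of 27 glycolysis and glycogen genes 3 fell and 1 rose (median -0.093), where 1.03% of all genes fell. Gyg, the glycogenin that primes glycogen, was at 239, 247 and 234 TPM in gastrocnemius Ctrl and 150.2, 130.1 and 158 in KO, and in soleus at 298, 350.3 and 335 TPM in Ctrl and 225, 239 and 203 in KO, apart in both (-0.64, SE 0.0762, adjusted p = 0.000826). Pfkfb1, which sets the level of a regulator of glycolysis, fell by 0.58 (SE 0.0858, adjusted p = 0.00393), and Ugp2, which makes UDP-glucose for glycogen, by 0.50 (SE 0.115, adjusted p = 0.0436). Ugp2 overlapped between genotypes in soleus and kept its call in 3 of 12 cases with a library omitted. Hk1, a hexokinase, rose by 0.35 (SE 0.0748, adjusted p = 0.0316) and omitting a library ended this call in 10 of 12 cases. Of 28 fatty acid oxidation genes 2 fell and 0 rose, 22 were below 0 and the median was -0.11. These were Acsl6 and Cd36, the fatty acid transporter, which went from 103–124 to 74.2–78.4 TPM and from 272–329 to 194–238 TPM (-0.53, SE 0.0795, adjusted p = 0.00393). None of 21 citrate cycle, 48 nuclear respiratory chain and 13 mitochondrially encoded genes was called by limma.

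Counts in lists of contractile and calcium handling genes were near the 2.08% called over all genes. Capn3 was the 1 called member of 31 sarcomere and Z-disc genes and Mb that of 18 slow fibre genes, and of 18 fast fibre and 25 calcium handling genes 0 were called. The myosins of fibre types were not called, with log2 fold changes of -0.11 for Myh7, 0.0037 for Myh2, -0.45 for Myh1 and 0.72 for Myh4 (adjusted p = 0.910, 0.993, 0.285 and 0.402), and those of Myh7 and Myh2 changed sign between settings. Of 75 cytosolic ribosomal protein genes 69 were above 0 with a median of 0.15 (0.27 in gastrocnemius and 0.049 in soleus), but only Rpl35a, which has near-identical copies, was called (0.43, SE 0.0868, adjusted p = 0.0250). Rpl35a kept its call in 4 of 12 cases with a library omitted, and the count in the list ran from 0 (without any 1 gastrocnemius library, among others) to 12 (without soleus KO 3). All 24 collagen and matrix genes were above 0 with a median of 0.24, and 0 were called. Of 25 growth signalling genes Grb14 fell. Of 17 genes listed for H3K9 methylation, the mark PHF2 is known to act on, Phf2 itself was the 1 called gene. No member was called by limma among lipid and sterol synthesis, oxidative stress, integrated stress response, chaperone, clock, autophagy, proteasome, cell cycle, interferon, immediate early, and glucocorticoid genes. Over the 17 pathway lists without a called gene, 48 of 354 distinct genes had an unadjusted p under 0.05, against 15% of all genes tested.

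**Figure D4:**
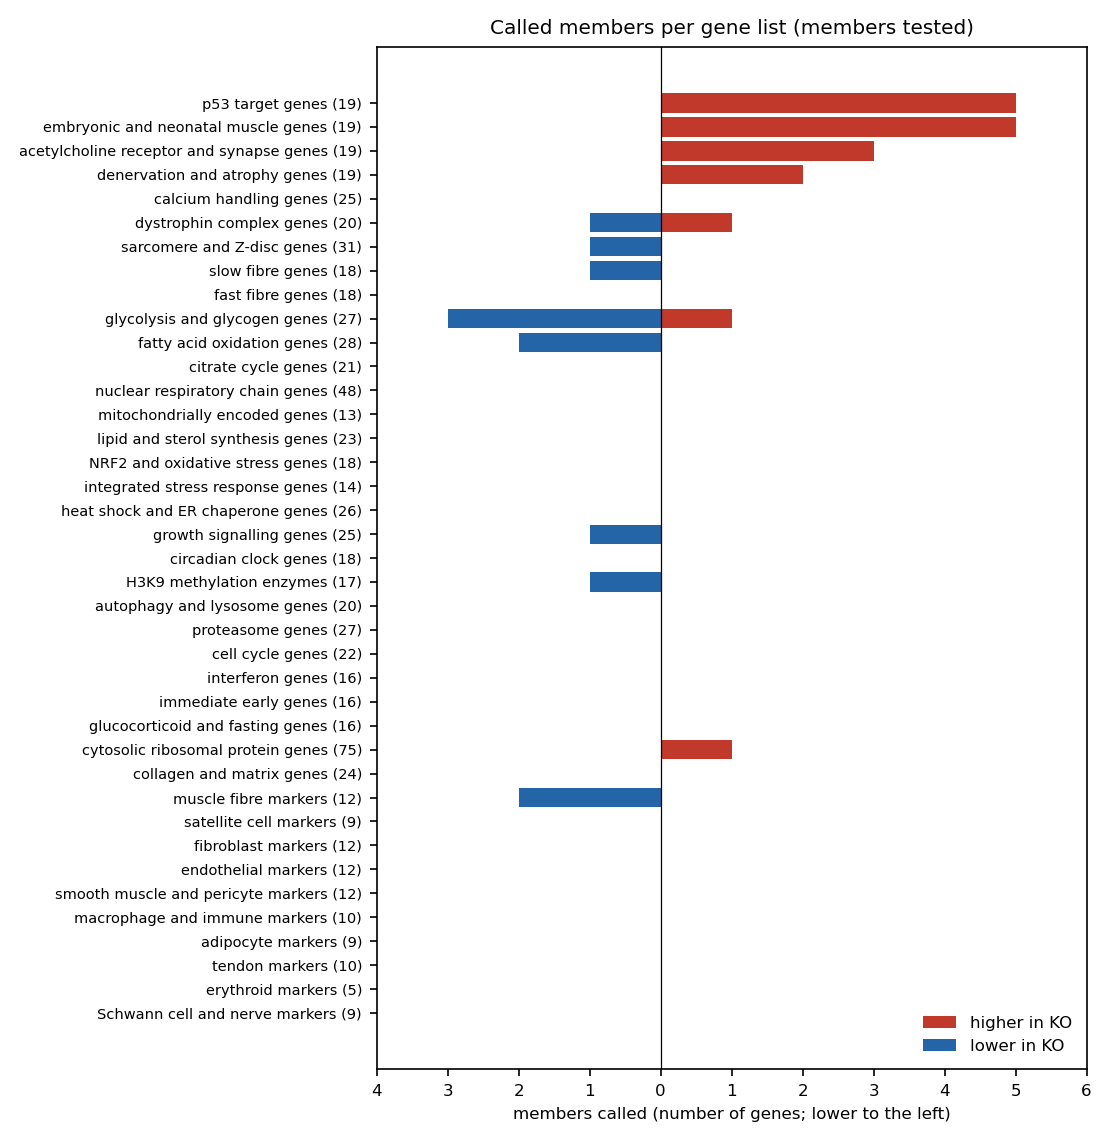
Number of called members in each of the 39 gene lists, with the number tested in brackets, drawn to the right for rises (red) and to the left for falls (blue). The p53 target and embryonic muscle lists hold the most rises (5 of 19 each) and glycolysis and glycogen genes the most falls (3 of 27). Over all genes tested 1.05% rose and 1.03% fell.

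Of 12 muscle fibre markers Dmd and Mb fell. Among 9 lists of markers for other cell types (satellite cells, fibroblasts, endothelium, smooth muscle and pericytes, macrophages and immune cells, adipocytes, tendon, erythroid cells, and Schwann cells and nerve) 0 of 87 members were called by limma, against 2.08% of all genes, and 11 had an unadjusted p under 0.05, against 15% of all genes. All 10 macrophage and immune, 10 tendon and 5 erythroid genes were above 0 (medians 0.29, 0.29 and 0.17). All 9 Schwann cell and nerve genes and 11 of 12 endothelial genes were below 0 (medians -0.29 and -0.11). Above 0 were 10 of 12 fibroblast, 8 of 12 smooth muscle and pericyte, 6 of 9 satellite cell and 6 of 9 adipocyte genes. Such leans were not tested. Summed TPM was apart between genotypes in both muscles for 0 of the 10 marker lists. In soleus the endothelial sum was 471 to 551 TPM in Ctrl and 423 to 454 in KO, and the adipocyte sum 3477 to 4492 and 2550 to 3018. In gastrocnemius the smooth muscle and pericyte sum was 1197 to 1249 TPM in Ctrl and 1376 to 1618 in KO. In each case the other muscle's groups overlapped. The median log2 fold change over members in the muscle named was -0.23 for endothelial, -0.029 for adipocyte and 0.33 for smooth muscle and pericyte markers. A sum follows its most abundant members and does not count cells. Des stood in both the smooth muscle and the muscle fibre list, and Slc2a4 in both the adipocyte and the glycolysis list. The T-cell gene Cd3e and the neurofilaments Nefl and Nefm were at 0 in at least 1 library. The part of other cell types in the called changes was not tested.

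A main effect averages over muscles, so the difference between them was tested as well. The soleus effect minus the gastrocnemius effect passed in 33 genes (0.273%), of which 3 were among the 252 called genes, which are 2.08% of all tested. Klhdc1, a kelch-domain protein, was at 19.5, 20.6 and 19.9 TPM in gastrocnemius Ctrl and 61.3, 55.9 and 53.6 in KO, but in soleus at 15.3, 14.7 and 15.3 TPM in Ctrl and 17.3, 16.96 and 22.6 in KO. Its rise across muscles (0.88, SE 0.181, adjusted p = 0.0269) averaged 1.46 in gastrocnemius and 0.30 in soleus. Hspa2, a heat shock protein of the HSP70 family, was at 12.1, 10.3 and 9.01 TPM in soleus Ctrl and 2.37, 3.37 and 3.01 in KO, but in gastrocnemius at 3.37, 2.99 and 2.23 TPM in Ctrl and 2.30, 2.16 and 2.06 in KO (-0.91, SE 0.205, adjusted p = 0.0409). The predicted gene 4933415F23Rik was at -0.27 in gastrocnemius and -1.78 in soleus. In gastrocnemius it was below 1 TPM in both genotypes (0.465–0.670 TPM in Ctrl and 0.223–0.334 in KO). At such levels the log2(TPM + 1) scale leaves little room for a fall, so this difference between muscles may reflect expression level. Of the 28 genes of largest change named above, 0 passed the test of a difference between muscles, with the smallest adjusted p for Acsl6 (0.0916), which does not show that their changes were equal. Sln, the sarcolipin that inhibits the calcium pump, was at 1.86 in gastrocnemius and 0.058 in soleus but its difference between muscles did not pass (adjusted p = 0.114), nor was it called across muscles (adjusted p = 0.204).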

How the data were processed

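The authors deposited TPM, gastrocnemius and soleus separately, and every library sums to 1000000. Per the submitters' processing notes the genome was mm10. Not given in the sources used here are the aligner, the tool behind the TPM and any counting by strand. Libraries were directional and made from total RNA, per the labels' protocols. TPM keeps no depth, so the precision of low values is unknown. Both tables were joined on gene ID, and 34652 of 34866 IDs matched GENCODE mouse release M21 for symbols and coordinates. Values were transformed to log2(TPM + 1), which understates changes of low genes. Genes whose mean reached 1 TPM were fitted with limma 3.58.1 (R 4.3.3) with terms for muscle and genotype, a mean-variance trend and two-sided moderated tests, adjusted by Benjamini-Hochberg over all 12091 genes. Each muscle was also fitted alone, and the difference between muscles came from a fit with 4 group means. The fit was tested on simulated data.

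Named genes are Phf2, the 14 called genes that rose most and the 14 that fell most with libraries apart in both muscles, and up to 3 called members per list. Up to 4 called genes per direction that differ between muscles were added, with Myh7, Myh2, Myh1 and Myh4. Predicted genes, pseudogenes and further near-identical family members such as Gbp10 were passed over. Casq2, Sln, Cntnap2, Mdm2, Bax, further acetylcholine receptor subunits, further called list members, histone, Asb and Acot genes, Aqp4, Pkia, Me1, Adk, Fndc5 and Gm10443 were singled out after their values were seen. The genes compared and the lists were chosen with earlier results of these data known. No list was tested as a whole. The smallest exact permutation p was 0.005, with each muscle exchanged independently. Alternatives were other pseudocounts, filters, scalings, variance models, blocks by library number, covariates and leaving out each library. The presence of Gm12338 as a term was added after seeing the data. Gm12338 was at 0 TPM in each gastrocnemius Ctrl library and at 110, 194 and 99.4 TPM in KO, so there its presence followed genotype. In soleus it was at 187, 0 and 74.5 TPM in Ctrl and 0, 174 and 0 in KO. Promoter windows are from RefSeq (GRCm38.p6). No library was left out.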

Additional observations from a re-analysis of the deposited data

Results flagged for a closer look

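5 of the genes named or singled out had a KO effect that differed between muscles by limma, given here as the soleus effect minus the gastrocnemius effect on the log2(TPM + 1) scale. Cntnap2, a neurexin-family adhesion protein, fell in gastrocnemius from 10.2–10.96 to 2.21–2.999 TPM but was at 0.129 to 0.268 TPM in soleus Ctrl and 0.135 to 0.315 in KO, a difference of 1.69 (adjusted p = 0.00276). Soleus Ctrl levels were so low that a fall of the gastrocnemius size could not appear there on this scale. For Cntnap2 the test therefore cannot tell a muscle-specific KO effect from near absence in soleus. Casq2, a calsequestrin of heart and slow fibres, rose in gastrocnemius from 18.5–25.6 to 52.0–78.7 TPM and was at 183 to 234 and 204 to 268 TPM in soleus (-1.43, adjusted p = 0.0495). Neither was called across muscles (adjusted p = 0.130 and 0.0776). Klhdc1 differed by -1.16 (adjusted p = 0.0193). Hspa2 differed by -1.27 (adjusted p = 0.0392), and 4933415F23Rik, at 3.10 to 4.85 TPM in soleus Ctrl and 0.342 to 0.593 in KO, by -1.52 (adjusted p = 0.0193). In gastrocnemius 4933415F23Rik was at only 0.465 to 0.670 TPM in Ctrl and 0.223 to 0.334 in KO, which limits the fall this scale can show.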

How the results depend on the processing

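Of the 28 genes of largest change, 25 kept their call in all 29 alternatives that could be computed for them, and 0 changed sign. Of all 252 called genes, 85 did so. Calls (rises and falls, against 127 and 125) numbered 450 and 326 with array weights, 213 and 215 with 4 group means, 242 and 262 after GC and length correction, 67 and 72 with a covariate for processed pseudogenes, and 160 and 172 with the presence of Gm12338 as a term. Without a filter falls numbered 82 and Phf2 missed the threshold (-0.52, adjusted p = 0.0697). Leaving out each library gave 66 to 353 rises, 70 to 196 falls and -0.58 to -0.46 for Phf2. Residuals of same-numbered libraries correlated at -0.38 to 0.20 over all pairs of groups. Muscles of the same genotype and number correlated at -0.15 to 0.20, and 1 of 12 libraries correlated best with its own number. Whether the muscles share mice is not in the labels. These residuals cannot decide it, since each group holds 3 libraries and genes of a library share its composition. The replicate block as a fixed term gave 75 rises and 80 falls, with Phf2 at -0.52 (adjusted p = 0.0736), and the replicate block by duplicateCorrelation 234 and 213. The latter used a negative consensus correlation (-0.167), which makes standard errors smaller (0.0987 against 0.112 for Phf2), so its larger counts are no sign of firmer calls. Averaging muscles of the same number gave 112 and 99. Myh2, near 0, was at -0.027 with median-ratio scaling, -0.11 with the pseudogene covariate, -0.012 after GC correction and -0.044 with the Gm12338 term, and Myh7 at 0.19 with array weights. Leaving out a library gave -0.081 to 0.070 for Myh2 and -0.38 to 0.14 for Myh7. Depth is unknown, which limits statements on low genes.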

Other observations

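Several called genes with known roles in muscle were chosen after their values were seen. Aqp4, the water channel of fast fibres that is held at the membrane by the dystrophin complex, fell across muscles (-0.62, SE 0.130, adjusted p = 0.0324). It went from 6.70–10.1 to 3.46–4.90 TPM in soleus. In gastrocnemius the genotypes overlapped (15.8–20.7 TPM in Ctrl and 11.02–16.2 in KO). Pkia, an inhibitor of protein kinase A, fell from 246–288 to 119–166 TPM and from 167–209 to 93.3–122 TPM (-0.86, SE 0.0997, adjusted p = 0.000798). Me1, the malic enzyme that makes NADPH for lipid synthesis, fell by 0.71 (SE 0.105, adjusted p = 0.00393). Adk, the adenosine kinase, fell by 0.82 (SE 0.108, adjusted p = 0.00187). Fndc5, the precursor of irisin, fell by 0.37 (SE 0.0858, adjusted p = 0.0452). With each library omitted in turn, Aqp4 kept its call in 5 of 12 cases and Fndc5 in 4.

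Gene families that were noticed after their values were seen are given as counts, where 1.05% of all tested genes rose and 1.03% fell. Of 22 tested replication-dependent histone genes, which encode the core and linker histones made in S phase, 5 rose, 0 fell and 19 were above 0, with a median of 0.49. These were Hist1h4n, Hist1h3d (0.65, adjusted p = 0.00106), Hist1h2be (0.39, adjusted p = 0.0145), Hist1h3e and Hist1h1e, of which Hist1h3e and Hist1h1e kept their calls in 3 and 2 of 12 cases with a library omitted. Hist1h3d was at 2.77, 3.24 and 3.48 TPM in gastrocnemius Ctrl and 6.08, 6.30 and 5.67 in KO, and in soleus at 3.01, 3.58 and 3.20 TPM in Ctrl and 5.91, 5.26 and 4.60 in KO. Their copies are near-identical, so the share of reads of each is uncertain. All 7 tested acetylcholine receptor subunit genes were above 0 (median 0.48), and 3 of them rose.

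Of 16 tested Asb genes, which encode substrate adaptors of ubiquitin ligases, 3 fell and 0 rose (median -0.16). Beside Asb14, Asb10 went from 37.1–38.8 to 29.9–31.4 TPM in gastrocnemius and from 37.9–41.8 to 16.9–24.7 TPM in soleus (-0.62, adjusted p = 0.0180), and Asb18 changed by -0.53 (adjusted p = 0.0241) and kept its call in 6 of 12 cases. Of 9 tested acyl-CoA thioesterase genes Acot1 and Acot2 fell (-0.89 and -0.59, adjusted p = 0.0400 and 0.00556). These are near-identical copies, and Acot1 overlapped between genotypes in gastrocnemius and kept its call in 4 of 12 cases. Of 6 St3gal genes, which encode sialyltransferases, 2 fell. The largest fitted change of all belonged to the processed pseudogene Gm10443, listed at 0 in each gastrocnemius Ctrl library and at 116 to 128 TPM in KO, and in soleus at 98.3, 0 and 70.6 TPM in Ctrl and 68.3, 158 and 117 in KO, where the genotypes overlapped (adjusted p = 0.0419).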
